A study of Mus musculus with 4 samples.

Results

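Cells with RNA of Mmp12, Mmp19, Dcstamp or Ocstamp and little complement C1q RNA were picked from CD45-enriched mouse ovarian tumours. Mmp12 and Mmp19 are protease genes, and Dcstamp and Ocstamp are cell fusion genes. The rule was set on UMIs (unique molecular identifiers, each standing for 1 captured transcript). It was meant for macrophages, but 12.3% of the cells it chose were dendritic-like or fibroblast-like, as described below. A cell was a member when Dcstamp, Ocstamp, Mmp12 and Mmp19 together gave at least 3 UMIs, C1qa, C1qb and C1qc together at most 2, and Vcan and Ms4a4c together 0. It also had at most 4 UMIs of S100a8 and S100a9, 0 of Cd3d, Cd3e and Cd3g, and at most 1 of Krt8 and Krt18. Of 20607 cells kept, 1363 were members, 602 of 10617 in the control matrix and 761 of 9990 in the IL-27 matrix. These genes, and every measure taken from them, chose the cells and are given as a description. Ccl24 was taken as a further marker and was not in the rule, and cells outside the rule carried it as well.

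The injected cells were OV2944-HM1, an ovarian cancer line of the mouse, of which 1000000 were placed under the skin of the right flank of B6C3F1 mice aged 6 to 8 weeks. Mice of the control group received vehicle, and mice of the IL-27 group received recombinant mouse interleukin 27 at 100 ng per mouse into the tumour, on the day of implantation and on alternate days from then. On day 14 tumours were digested, CD45-positive cells were enriched with magnetic beads, and RNA was counted with a droplet 5' kit. Each group was a single matrix (n = 1), although the labels hold 4 entries, 2 for each group, and nothing ties a cell to its entry. No test was therefore made, and no difference has a replicate check. All tumours shared the line, the strain and the day, and whether cells of several mice were pooled is not stated in the labels. Intervals (95%) describe counting error alone: Poisson for a level, Clopper-Pearson for a share and conditional binomial for a ratio. Levels are in CPM, a gene's UMIs per 1000000 UMIs of a cell group, and ratios are IL-27 over control.

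Mmp12 (macrophage elastase) and Mmp19 are secreted proteases that cut elastin and other proteins of the extracellular matrix. Dcstamp and Ocstamp are membrane proteins needed for the fusion of osteoclasts and of macrophage giant cells. Ccl24 (eotaxin-2) is a chemokine that acts through Ccr3 on eosinophils, and it is a known product of macrophages exposed to type 2 cytokines. C1qa, C1qb and C1qc form the recognition unit of the classical complement pathway, and macrophages long resident in a tissue or tumour often make them in large amounts. IL-27 acts through the receptor chains Il27ra and Il6st, with signals carried by STAT factors such as Stat3.

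Mmp12 carried most of the rule, so the sequence before its start sites is shown. The gene (ENSMUSG00000049723) lies on the plus strand of chromosome 9 at 7344381 to 7369499 in GRCm38. RefSeq (GRCm38.p6) gave 2 windows for it, each printed as the 250 bases before a start site on the plus strand, chr9:7344147-7344396 and chr9:7347124-7347373. Capitals mark matches to GAGGAAGT (a motif of the macrophage factor PU.1) in the first window, where the match is on the minus strand and reads as its reverse complement, and to TGANTCA (a motif of AP-1) in the second.

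Mmp12 start 1: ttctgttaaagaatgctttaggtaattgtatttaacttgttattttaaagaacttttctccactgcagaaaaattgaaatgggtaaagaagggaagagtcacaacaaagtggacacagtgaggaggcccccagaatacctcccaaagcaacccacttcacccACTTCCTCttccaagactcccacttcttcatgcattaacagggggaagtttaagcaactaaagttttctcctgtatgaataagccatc
Mmp12 start 2: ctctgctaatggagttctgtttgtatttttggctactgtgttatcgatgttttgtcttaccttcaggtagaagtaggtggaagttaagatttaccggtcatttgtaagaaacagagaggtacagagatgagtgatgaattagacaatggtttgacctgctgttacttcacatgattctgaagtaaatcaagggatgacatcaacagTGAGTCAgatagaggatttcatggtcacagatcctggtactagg

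The matches begin 88 bases before the first start and 44 bases before the second. Both strands were searched, and the motifs do not overlap each other. Of 32851 such windows over all genes, 2217 (6.75%) held TGANTCA and 802 (2.44%) held GAGGAAGT, so each match describes these letters and no more. Among the other markers, Mmp19 (ENSMUSG00000025355) lies on chromosome 10 at 128790910 to 128800824 and Dcstamp (ENSMUSG00000022303) on chromosome 15 at 39745930 to 39760938, both on the plus strand. Ocstamp (ENSMUSG00000027670, chromosome 2, 165393760 to 165400405) and Ccl24 (ENSMUSG00000004814, chromosome 5, 135569937 to 135573049) lie on the minus strand.

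The control matrix kept 53836151 UMIs and the IL-27 matrix 43622148, with medians of 2408 and 1870.5 per cell. Members were deeper than the average cell, with medians of 3635 UMIs and 1338.5 genes in the control matrix and 2848 UMIs and 1190 genes in the IL-27 matrix. Their mitochondrial share had medians of 1.15% and 1.23%. The matrices had 131 kept barcodes in common; 1 of these was a member in both, 14 members carried such a barcode, and the ratio of the members' shares was 1.34 without them. Neutrophils, taken as cells with at least 20 UMIs of S100a8 and S100a9 and a UMI of Csf3r, made up 19.8% of control and 13.9% of IL-27 cells. Their RNA can reach other droplets, so their levels are given beside those of the members for several genes that neutrophils also carry.

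Among the rule's 4 genes, Mmp12 was the most widely counted. It was found in 88.0% of control and 88.4% of IL-27 members, Mmp19 in 51.5% and 59.0%, Dcstamp in 36.7% and 32.3%, and Ocstamp in 18.6% and 19.6%. Without Mmp12, 57.0% and 56.4% of the members would have missed the rule, against 12.1% and 18.4% without Mmp19, 6.64% and 4.73% without Dcstamp, and 1.16% and 1.45% without Ocstamp. A UMI of Dcstamp or Ocstamp was present in 43.9% and 40.6% of members, so most members were chosen on the proteases alone. Members with UMIs of only 1 of the 4 genes made up 37.7% and 36%, and those with all 4 made up 6.31% and 7.75%. The summed UMIs of the 4 genes had medians of 8 and 7 and reached 216 and 112 in the highest cells.

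The rule's thresholds cut through a continuous range. With C1q at most 2, 95 control and 129 IL-27 cells had exactly 3 UMIs of the 4 genes, and 162 and 193 cells had 2 and were left out. Ccl24 stood at 831 and 2902 CPM in the cells just inside and at 1159 and 2249 CPM in those just outside. At the C1q limit, 91 and 101 cells had 2 C1q UMIs, and 65 and 75 cells had 3 and were left out. Ccl24 stood at 2362 and 3632 CPM in the former and at 4230 and 3350 CPM in the latter.

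The labels call the sorted cells lymphocytes, but the members lacked lymphocyte RNA. T cell markers summed to 9.14 CPM in control and 6.59 CPM in IL-27 members, with 3 and 4 of 10 at 0, and NK cell markers to 12.9 and 16.3 CPM, with 3 and 2 of 7 at 0. The Cd3 genes within the T cell list were part of the rule. B and plasma cell markers summed to 1.78 and 0.527 CPM, with 2 and 5 of 6 at 0, and eosinophil markers to 0.762 and 3.43 CPM, with 5 and 3 of 6 at 0. The 10 general macrophage markers summed to 3302 and 2838 CPM, against 8427 and 9104 CPM in C1q macrophages, the cells with at least 10 C1q UMIs and at most 2 UMIs of the rule's 4 genes. The list also summed to 5614 and 5202 CPM in monocytes and 9668 and 8594 CPM in neutrophils, so its sum did not set macrophages apart. Adgre1, the F4/80 antigen, was low in members at 10.7 and 12.4 CPM, against 175 and 208 CPM in C1q macrophages. Mertk, a receptor for dying cells, stood at 8.38 and 7.64 CPM against 32.5 and 84.2 CPM. Csf1r, the receptor for the macrophage growth factor, stood at 139 and 155 CPM against 428 and 432 CPM. Neutrophil markers, of which the rule limited S100a8 and S100a9, summed to 1612 and 1314 CPM, and 1555 and 1260 CPM of that was Mmp9, which macrophages also make. Conventional dendritic cell markers, which the rule did not limit, summed to 1563 and 1178 CPM, with 0 of 10 at 0.

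Clustering the members separated cells with dendritic and fibroblast genes from the rest. Clusters 1, 2 and 3 held 781, 270 and 145 members, 87.7% of all, and took no cell type name. Clusters 4 and 5, with 81 and 76 members, were conventional dendritic-like: in cluster 4 Ccr7, the receptor that guides dendritic cells to lymph nodes, stood at 2652 CPM and Ccl22 at 1205 CPM, and in cluster 5 the cross-presenting markers Clec9a and Xcr1 stood at 243 and 202 CPM. Cluster 6 held 10 fibroblast-like members with Col1a1 (type I collagen) at 5331 CPM and no UMI of Mmp12 or Dcstamp, and these cells met the rule through Mmp19 at 181 CPM. Clusters 4 to 6 were 12.3% of members (14.3% of control and 10.6% of IL-27 members) but held 41.4% of the members' UMIs, because their median depths were 15025, 21652.5 and 21339 UMIs against 3594, 1584.5 and 1222 in clusters 1 to 3. For this reason the levels below are given for the 1196 members of clusters 1 to 3 (516 control, 680 IL-27), with all members beside them where the direction or size differs. In clusters 1 to 3 the dendritic markers summed to 409 and 279 CPM, and the fibroblast markers to 3.60 and 3.47 CPM, with 2 and 3 of 6 at 0.

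Clusters 1 to 3 differed in their leading genes. Cluster 1 led with Mcpt1, Ccl3, Edn1 (endothelin 1), Car4 (a carbonic anhydrase), Ptgs2 (the inducible cyclooxygenase) and Ccl24. Neutrophils carried Car4 at 922 and 509 CPM and Ptgs2 at 1031 and 927 CPM, and their part in cluster 1 was not tested. Mcpt1, a mast cell protease gene, stood at 146 CPM there against 0.749 CPM in the other members, while the 6 mast cell and basophil markers summed to 9.45 and 3.90 CPM over clusters 1 to 3, with 2 and 4 of 6 at 0. Ccl24 stood at 4487 CPM in cluster 1, 3569 in cluster 2 and 2293 in cluster 3. Cluster 2 led with the platelet chemokine Pf4 at 4025 CPM against 232 CPM in other members, and with F13a1, Saa3, Mmp13, Ccl7, Ccl8 and Ccl2. It also held the highest Mmp12 level of the 6 clusters at 4234 CPM, Arg1 (arginase, an enzyme of alternative activation) at 3443 CPM, Spp1 (osteopontin) at 4384 CPM and Mmp9 at 6360 CPM. Dcstamp and Ocstamp were lowest of clusters 1 to 3 in cluster 2, at 43.0 and 5.61 CPM, against 225 and 79.1 CPM in cluster 1. Cluster 3 led with Blvrb, H2-M2 and Prdx1, an antioxidant enzyme at 3688 CPM; its median mitochondrial share was 0.122% and its median depth the lowest. Fth1 (ferritin heavy chain), the gene that neutrophils also carry at 90685 CPM, stood at 35170 CPM in cluster 3, 34617 in cluster 2 and 24633 in cluster 1; the part of neutrophil RNA in this was not tested.

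Dcstamp was also carried by the dendritic-like members. It stood at 235 CPM in cluster 4 and 147 CPM in cluster 5, against 225 CPM in cluster 1, while Mmp12 stood at 692 and 154 CPM there, against 2179 CPM in cluster 1. At finer clustering (resolution 0.5 and 1.0, with 7 and 10 clusters) clusters 4 to 6 came back whole, and cluster 1 broke into smaller sets, of which the largest held 57.5% and 32.4% of it.

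**Figure D1:**
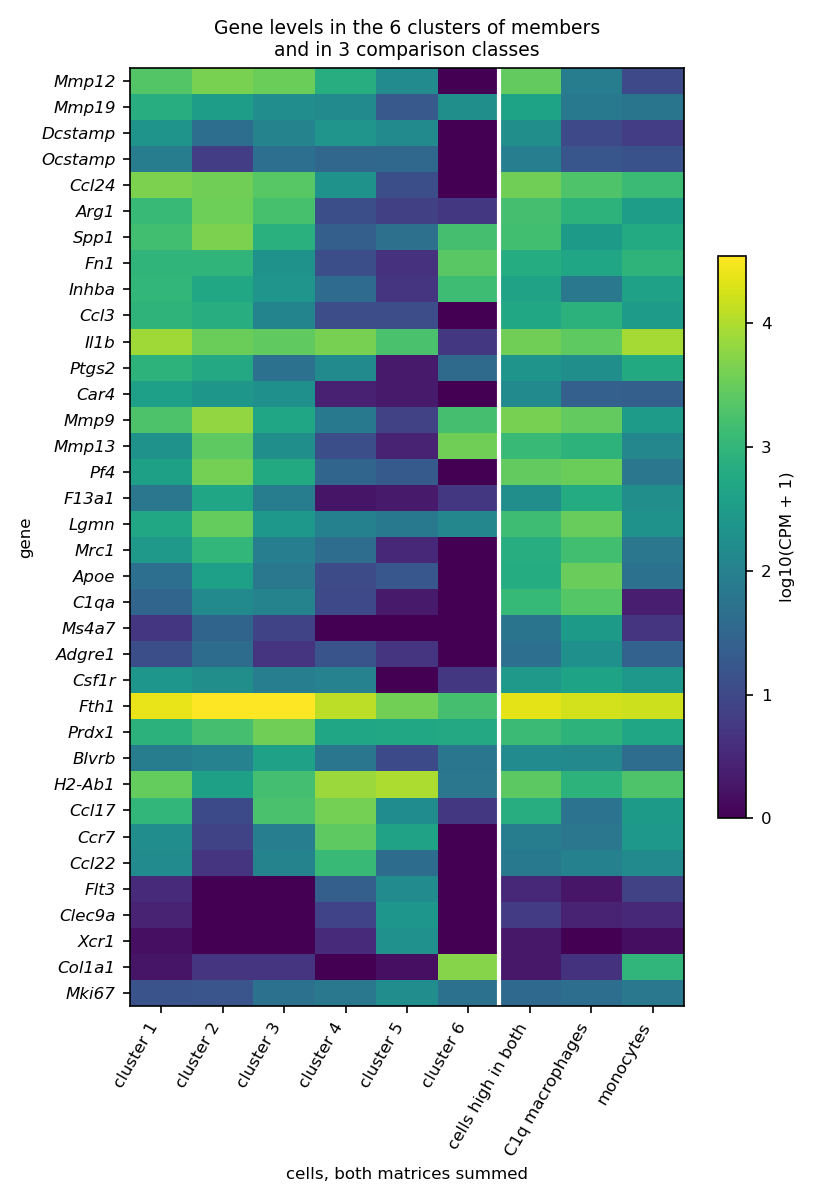
Levels of marker and leading genes in the 6 clusters of members and in 3 comparison classes, both matrices summed, coloured by log10 of CPM + 1. Mmp12 and Ccl24 are high in clusters 1 to 3, the dendritic genes in clusters 4 and 5 and Col1a1 in cluster 6.

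The members took a larger share of the IL-27 matrix. They were 5.67% (5.24 to 6.13) of control and 7.62% (7.10 to 8.16) of IL-27 cells. The ratio was 1.34 (1.21 to 1.498), 1.24 (1.11 to 1.38) when counted among mononuclear phagocytes only, and 1.23 (1.11 to 1.37) when the rule was applied to cells thinned to 1000 UMIs. The ratio was 1.58 (1.37 to 1.83) for cluster 1, 1.37 (1.07 to 1.76) for cluster 2 and 0.772 (0.546 to 1.09) for cluster 3. It was 1.09 (0.687 to 1.73) for cluster 4 and 0.907 (0.561 to 1.46) for cluster 5. The share of neutrophils moved the other way, with a ratio of 0.702, while T cells, with at least 3 Cd3 UMIs, had a ratio of 1.04. A share depends on every other cell in the tube, and the part of the neutrophils in these ratios was not tested.

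The shares were nearly equal when the C1q limit of the rule was left out. With the same limits except that on C1q, 1300 control cells (12.2%) and 1252 IL-27 cells (12.5%) carried the markers, a ratio of 1.02 (0.946 to 1.11). Of these cells, 30.7% (28.2 to 33.3) in the control and 41.6% (38.9 to 44.4) in the IL-27 matrix had no C1q UMI. Those with 1 to 2 were 15.6% and 19.2%, and those with 3 to 9 were 24.8% and 24.9%. Those with at least 10 were 28.8% (26.4 to 31.4) in the control and 14.3% (12.4 to 16.4) in the IL-27 matrix. The latter, called cells high in both, were 375 and 179 cells, a ratio of 0.507 (0.422 to 0.608) as a share of all kept cells. Marker-positive cells were about as frequent in both matrices, and fewer of them had at least 10 C1q UMIs in the IL-27 matrix. The rule used these same C1q and marker counts, so the split describes the gate. With 1 matrix per group it has no replicate check.

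Depth differed between the matrices, so the split was repeated on cells thinned to 1000 UMIs with at least 2 marker UMIs left, 1060 control and 992 IL-27 cells. No C1q UMI was left in 45.0% (42.0 to 48.1) of control and 57.1% (53.9 to 60.2) of IL-27 cells, and at least 2 were left in 37.5% (34.6 to 40.5) and 27.3% (24.6 to 30.2). The direction was therefore the same at equal depth. C1q macrophages without the marker genes were 184 and 169 cells, with a ratio of 0.976 (0.787 to 1.21), so their share did not follow that of the cells high in both.

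**Figure D2:**
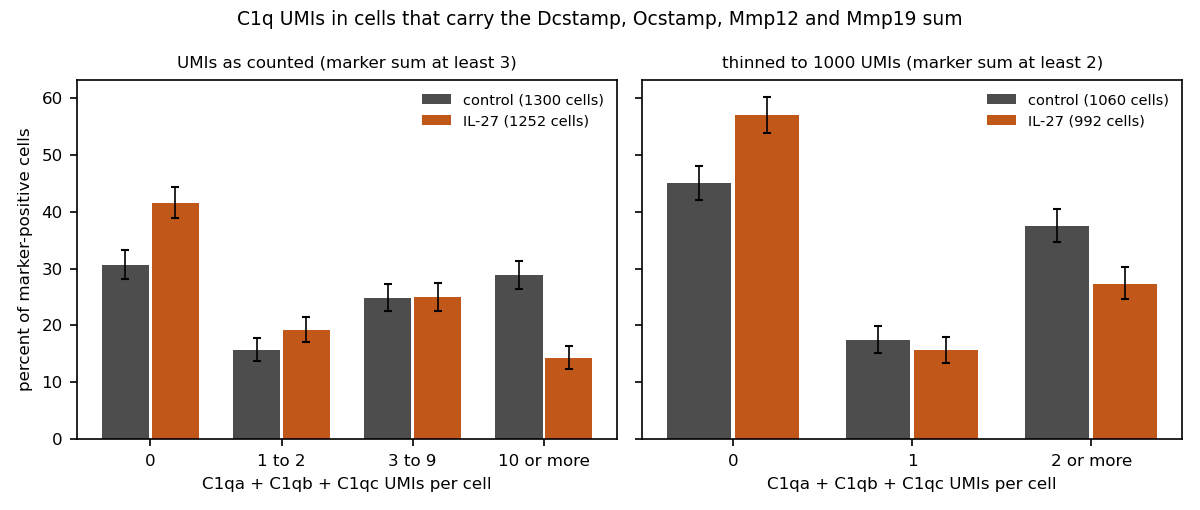
Percent of marker-positive cells in each class of C1q UMIs, control and IL-27 matrices side by side, as counted (left, 1300 and 1252 cells) and thinned to 1000 UMIs (right, 1060 and 992 cells), with 95% Clopper-Pearson intervals. The class without C1q is larger and the class highest in C1q smaller in the IL-27 matrix in both panels.

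Mmp12 was high in the cells with the marker genes and low in the gates without them, as the rule set. Clusters 1 to 3 had 2575 CPM in the control (2509 to 2643) and 2412 in the IL-27 matrix (2349 to 2476), and cells high in both had 2774 and 2969 CPM. C1q macrophages had 74.1 and 84.2 CPM, neutrophils 30.9 and 53.0 CPM and T cells 29.1 and 13.9 CPM. Mmp19 stood at 538 and 693 CPM in clusters 1 to 3, Dcstamp at 189 and 203 CPM and Ocstamp at 61.2 and 75.5 CPM. Cells high in both had 400 and 522 CPM of Mmp19, 188 and 148 CPM of Dcstamp and 89.5 and 76.9 CPM of Ocstamp. Both groups were selected on these genes, so their levels are set by the rule.

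Ccl24, the marker outside the rule, was higher in the IL-27 matrix. Clusters 1 to 3 had 3758 CPM in the control (3678 to 3839) and 4725 in the IL-27 matrix (4637 to 4814). The ratio was 1.26 (1.22 to 1.29), and all members had 2134 and 2931 CPM. In members thinned to 1000 UMIs (529 control and 654 IL-27 members, with 73 and 107 shallower ones left out), 46.3% (42.0 to 50.7) and 63.5% (59.6 to 67.2) had a Ccl24 UMI, and 58.0% and 71.7% of members as counted. Within cluster 1 the thinned shares were 62.0% and 73.0%. Neutrophils, whose median depths were 2547 and 1936 UMIs, had shares of 3.28% and 4.23%. Whether those UMIs were free RNA was not tested. In C1q macrophages Ccl24 stood at 1634 and 2333 CPM, a ratio of 1.43, and in cells high in both at 3656 and 3452 CPM, so a higher level in the IL-27 matrix was seen in members and C1q macrophages and not in cells high in both. These differences between classes were not tested.

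Mmp19 also counted in more members of the IL-27 matrix, in 38.7% against 29.9% after thinning, with neutrophils at 1.46% and 1.49%; its ratio in clusters 1 to 3 was 1.29 (1.19 to 1.39). Mmp12 had thinned shares of 69.0% in control and 68.8% in IL-27 members and a ratio of 0.937 (0.903 to 0.972). Dcstamp had thinned shares of 14.7% and 14.4% and a ratio of 1.07 (0.939 to 1.23). These 3 genes chose the cells, so their ratios describe the selected cells only.

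**Figure D3:**
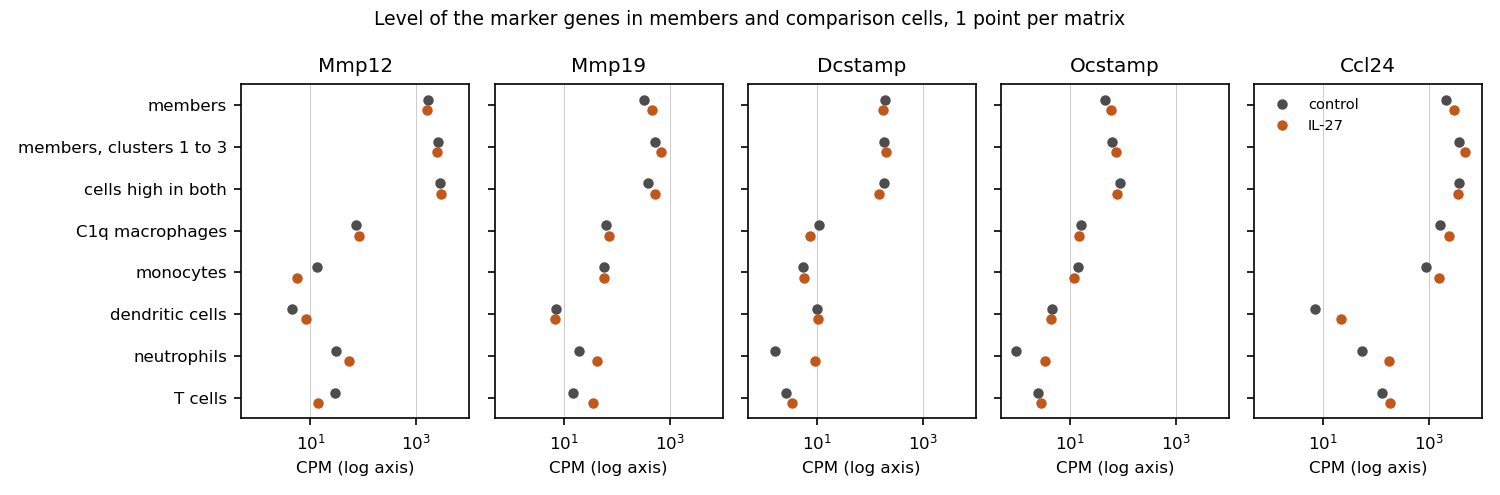
Levels of the marker genes on a log axis of CPM in 8 groups of cells, 1 point for each matrix. Clusters 1 to 3 and the cells high in both stand together at the top for Mmp12 and Dcstamp, and C1q macrophages, neutrophils and T cells stand far lower.

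Transcripts of the marker genes were spread unevenly over the members. The 10% of members with most UMIs of a gene held 46.5% and 41.8% of the Mmp12 UMIs, 63.8% and 64.9% of the Dcstamp UMIs, and 69.5% and 52.2% of the Ccl24 UMIs. The highest cell had 473 Ccl24 UMIs in the control and 234 in the IL-27 matrix. Chemokines were more uneven, with 88.7% and 85.3% of Ccl17 and 95.6% and 95.2% of Ccl7 in the top 10% of members. Across 1183 members thinned to 1000 UMIs, the genes whose counts ran closest to Mmp12 were Ccl6 (Spearman rho 0.38), Fth1 (0.32), Mmp9 (0.31) and Mmp13 (0.31) among 1242 genes. All these correlations were weak, the cells share 2 libraries, and nothing is read from them.

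Set against C1q macrophages, clusters 1 to 3 had lower levels of most genes in the resident macrophage list. Of 7507 genes with at least 20 UMIs, 277 were at least 2-fold higher in both matrices (3.69%) and 516 at least 2-fold lower (6.87%). The complement and resident macrophage list, which includes the C1q genes of the rule, had 21 of 25 genes lower and 0 higher. Among its members outside the rule, Apoe, a lipid carrier, stood at 108 and 60.7 CPM against 3544 and 2960 CPM, and Selenop, a selenium carrier, at 46.3 and 34.3 CPM against 1308 and 1286 CPM. Folr2, a folate receptor of resident macrophages, stood at 8.55 and 7.37 CPM against 417 and 483 CPM. The chemokine Ccl8 stood at 28.8 and 46.0 CPM against 4273 and 4898 CPM. Cbr2, C4b, Gas6, Ms4a7, Cd163, Igf1 and Fcna were also among the 15 lowest folds. Members were limited to at most 2 C1q UMIs, while C1q macrophages had at least 10. The part of this selection in the other genes was not tested. Cluster 2 carried more Apoe, at 361 CPM against 31.4 CPM in the other members. Cathepsin and lysosome genes were lower in 7 of 24 and higher in 0, and proliferation genes lower in 9 of 14 and higher in 0.

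Higher in clusters 1 to 3 than in C1q macrophages were genes of antigen presentation, of the response to GM-CSF (a growth factor of macrophages and dendritic cells) and of glycolysis. MHC class II genes were higher in 7 of 10 and lower in 0, with H2-Ab1 at 2729 and 2357 CPM against 1028 and 681 CPM. The GM-CSF list was higher in 6 of 13 and lower in 0, with Car4 at 441 and 255 CPM against 36.1 and 11.2 CPM (neutrophils 922 and 509 CPM) and Csf2rb, the shared beta chain of its receptor, at 1016 and 1297 CPM against 520 and 393 CPM. Glycolysis and hypoxia genes were higher in 9 of 24 and lower in 0. These lists did not set clusters 1 to 3 apart from the cells high in both. There 0 of 11 MHC class II, 0 of 13 GM-CSF and 0 of 24 glycolysis genes were past 2-fold in both matrices. Plet1 had folds of 31.8 and 33.0, Inhba (activin A) of 19.8 and 11.5, and Lpl (lipoprotein lipase) of 7.51 and 12. Cdh1 (E-cadherin, an adhesion protein found in fusing macrophages) stood at 95.4 and 141 CPM against 9.03 and 3.74 CPM. The chemokine Ccl17 had folds of 7.05 and 95.9, the largest gap between matrices among these genes, with 636 and 1257 CPM in clusters 1 to 3 against 90.3 and 13.1 CPM. Plet1, Ccl17, Csf2rb and MHC class II genes are also dendritic genes: Plet1 stood at 1222 CPM in cluster 4 and 2396 CPM in cluster 5, and dendritic markers in clusters 1 to 3 summed to the 409 and 279 CPM given above, and their part was not tested.

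All members gave a different list. They had 598 of 8818 genes higher (6.78%) and 640 lower (7.26%) against C1q macrophages, and among the 15 highest folds most UMIs came from the dendritic-like clusters; Hepacam2, for example, had 84.1% of its member UMIs in the 76 cells of cluster 5. This is why clusters 1 to 3 were set apart.

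Monocytes were the cells with at least 3 UMIs of Vcan and Ms4a4c, at most 2 of the rule's 4 genes and at most 2 of C1q (98 control and 144 IL-27 cells). All members were higher in 384 of 9111 genes (4.21%) and lower in 574 (6.3%) against these monocytes. Against them clusters 1 to 3 were higher in 254 of 8011 genes (3.17%) and lower in 577 (7.2%). Interferon-stimulated genes were lower in 19 of 23 and higher in 0, and genes induced by interferon gamma lower in 11 of 17 and higher in 0. Chemokines were higher in 9 of 21 and lower in 3. MHC class II genes were higher in 0 of 12 and lower in 0. The GM-CSF list was higher in 4 of 13 and lower in 2, and glycolysis and hypoxia genes higher in 4 of 24 and lower in 0. The platelet chemokine gene Ppbp stood at 180 and 81.1 CPM against 1 UMI in the monocytes of each matrix. Pf4 had folds of 16.8 and 10.3, the mannose receptor Mrc1 of 9.39 and 4.73, and Tnfrsf9 (4-1BB) of 5.68 and 12.1. The monocyte gate also held Col1a1 at 992 CPM, and the lowest folds were led by stromal genes such as Acta2 and Col4a1. Its mast cell and basophil markers summed to 28.8 CPM in the control and 1677 CPM in the IL-27 matrix. That gate was therefore mixed, and its makeup differed between the matrices. The part of stromal, mast and basophil cells in these counts was not tested.

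The cells high in both had the fewest genes past 2-fold of the 3 classes set against clusters 1 to 3. In both matrices 67 of 8175 genes were at least 2-fold higher in clusters 1 to 3 (0.82%) and 133 lower (1.63%). For all members these were 479 of 9211 (5.2%) and 201 (2.18%). Of the complement and resident macrophage list, which includes the C1q genes of the rule, 14 of 24 were lower and 0 higher. Apoe, outside the rule, stood at 108 and 60.7 CPM against 620 and 711 CPM. The gates took C1q at most 2 UMIs on one side and at least 10 on the other, so the C1q genes were lower by selection. The part of this selection in the other genes was not tested. The heat shock genes Hspa1a and Hspa1b, which tissue digestion is known to induce, had folds of 14.5 and 8.83, and of 9.11 and 11.9. Slpi, a protease inhibitor, had folds of 9.47 and 4.29, and the calcium-binding gene S100a4 of 3.26 and 3.04. Neutrophils carried Slpi at 1943 and 1964 CPM, and after thinning 50.9% of control neutrophils had a Slpi UMI against 8.32% of control members; their part was not tested. Ptgs2 had folds of 3.90 and 2.81, and IL-1 and inflammatory cytokine genes were higher in 4 of 17 and lower in 0. Arg1 did not separate them, at 1476 and 1533 CPM in clusters 1 to 3 and 1493 and 1944 CPM in cells high in both. Depth differed here, with medians of 2873 and 2574.5 UMIs in clusters 1 to 3 against 6314 and 5608 in cells high in both.

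Genes of mature osteoclasts ranged from 0 UMIs to 103 CPM in the members. In clusters 1 to 3 the calcitonin receptor Calcr had 0 UMIs in both matrices, which allows up to 3 in each, and Oscar 0 in the control and 0.434 CPM in the IL-27 matrix. Ctsk, the collagenase of bone resorption, stood at 4.05 and 4.77 CPM, Itgb3 at 4.05 and 6.50 CPM and Tnfrsf11a, the RANK receptor, at 14.4 and 12.6 CPM. Acp5 (tartrate-resistant acid phosphatase) stood at 103 and 86.7 CPM and the proton pump subunit Atp6v0d2 at 22.0 and 19.5 CPM, with 124 CPM in cluster 3. Genes of alveolar macrophages, which also depend on GM-CSF, were near 0: Pparg at 2.70 and 2.17 CPM, Siglecf at 0.90 and 1.30 CPM and Marco at 0.450 and 0.434 CPM.

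Between the matrices, 797 of 10187 genes were at least 1.5-fold higher (7.82%) and 848 at least 1.5-fold lower (8.32%) in IL-27 members. In clusters 1 to 3 these were 769 of 8671 (8.87%) and 727 (8.38%), and in cluster 1 alone 741 of 8264 (8.97%) and 773 (9.35%). The median log2 ratio over all genes was 0.01 in clusters 1 to 3. With 1 matrix per group these counts hold counting error and differences between tumours as well as any effect of the cytokine. They are the background against which the gene lists below are read.

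Interferon-stimulated genes were lower in the IL-27 matrix. Of 23 such genes in clusters 1 to 3, 11 were at least 1.5-fold lower, 0 were higher and 0 had a ratio above 1, with a median log2 ratio of -0.56; in all members 13 of 24 were lower and 0 higher. Isg15, a ubiquitin-like protein, had 211 CPM in the control (192 to 231) and 66.8 in the IL-27 matrix (56.7 to 78.2). Its ratio was 0.317 (0.263 to 0.381). The ratio was 0.354 (0.229 to 0.537) for Irf7, the factor that amplifies interferon production, and 0.290 (0.178 to 0.459) for Oasl1. Ifitm3, which restricts virus entry, stood at 987 and 558 CPM. C1q macrophages had ratios of 0.310 for Isg15, 0.383 for Irf7 and 0.317 for Oasl1, which are below 1 as well.

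Neutrophils carried Isg15 at 1669 CPM in the control and 1062 CPM in the IL-27 matrix, and their share of cells was lower in the latter. After thinning, 9.64% of control and 5.66% of IL-27 members had an Isg15 UMI (27.2% and 13.4% as counted), against 54.0% and 42.4% of neutrophils and 10.7% and 6.85% of T cells. Both of these cell types can express Isg15, so neither gives its background, and no difference is read from these shares; the part of free RNA in the members' level was not tested. Neutrophils had 94.3 and 53.0 CPM of Irf7, 97.9 and 45.1 CPM of Oasl1 and 928 and 670 CPM of Ifitm3.

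Inflammatory cytokines were mostly lower in clusters 1 to 3. Of 18 IL-1 family and inflammatory genes, 4 were at least 1.5-fold lower, 0 higher and 3 had a ratio above 1, with a median log2 ratio of -0.39; over all members 2 of 21 were higher and 2 lower. Il1b, the main cytokine of the inflammasome, stood at 8153 and 5787 CPM (ratio 0.710), Il1a at 710 and 390 CPM (0.550) and Tnf at 283 and 180 CPM (0.635). Il23a, a subunit of the cytokine IL-23, stood at 23.8 and 6.07 CPM (0.255). Il6 had a ratio of 0.341 (0.258 to 0.446) in clusters 1 to 3, but 3 cells held 42.0% of its control UMIs and its ratio over all members was 0.773. Il1rn, the antagonist of the IL-1 receptor, stood at 1217 and 1273 CPM. Neutrophils had 17541 and 12222 CPM of Il1b and 1789 and 1409 CPM of Il1a. They had 1447 and 967 CPM of Tnf and 609 and 331 CPM of Il23a, and their part was not tested. Thinned shares of members with an Il1a UMI were 27.8% and 19.6%, against 47.6% and 42.9% of neutrophils and 3.07% and 2.49% of T cells, which should lack the gene.

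Most chemokines had a ratio below 1 in clusters 1 to 3. Of 21 chemokines, 5 were at least 1.5-fold lower and 2 higher, and 5 had a ratio above 1, with a median log2 ratio of -0.46. Over all genes there, 8.38% were lower and 8.87% higher, so 2 genes higher are near the background. Cxcl1, which draws neutrophils, stood at 744 and 368 CPM (ratio 0.494), Ccl4, which draws T cells and macrophages, at 2053 and 1258 CPM (0.613), Ccl5 at 66.6 and 34.7 CPM (0.521) and Ppbp at 180 and 81.1 CPM (0.452). Neutrophils had 1305 and 574 CPM of Cxcl1 and 5679 and 5988 CPM of Ccl4, and their part was not tested. Ccl22, a ligand of Ccr4, stood at 166 and 107 CPM (0.647), but a single control cell held 228 of its 368 control UMIs, so no direction is read from it. Ccl17, the other Ccr4 ligand, went the other way, with 636 CPM in the control (604 to 670) and 1257 in the IL-27 matrix (1211 to 1303). Its ratio was 1.98 (1.85 to 2.11), while in C1q macrophages it stood at 90.3 and 13.1 CPM. Thinned shares with a Ccl17 UMI in clusters 1 to 3 were 15.3% and 22.0%, and neutrophils had 0.646% and 0.846%; the neutrophil level was 23.9 and 172 CPM. Over all members the Ccl17 ratio was 1.02. In the dendritic-like cluster 4 it stood at 4796 CPM in the control and 3001 CPM in the IL-27 matrix, the opposite direction to clusters 1 to 3. Ccl8 was the other chemokine past 1.5-fold higher, at 28.8 and 46.0 CPM.

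Genes of cholesterol synthesis were higher in the IL-27 matrix. Of 17 genes in clusters 1 to 3, 8 were at least 1.5-fold higher, 0 lower and 16 had a ratio above 1, with a median log2 ratio of 0.50; in cluster 1 alone 7 of 17 were higher. Cyp51, a demethylase of the pathway, had 26.1 CPM in the control (19.8 to 33.7) and 64.2 in the IL-27 matrix (54.3 to 75.4). Its ratio was 2.46 (1.80 to 3.39). Idi1, an isomerase, stood at 35.5 and 84.6 CPM (2.38), Msmo1 at 34.2 and 59.4 CPM (1.74) and Hmgcs1, an early synthase of the pathway, at 55.3 and 84.1 CPM (1.52). Neutrophils carried only 2.94 and 8.15 CPM of Cyp51 and 6.50 and 15 CPM of Idi1. In all members 3 of 19 genes were at least 1.5-fold higher, 0 lower and 16 had a ratio above 1, a smaller shift with a median log2 ratio of 0.23.

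Genes under the oxidative stress factor NRF2 and of iron and cystine handling were also higher. Of 16 genes, 5 were at least 1.5-fold higher, 0 lower and 11 had a ratio above 1, with a median log2 ratio of 0.29. Slc7a11, the cystine importer, had 409 CPM in the control (383 to 437) and 781 in the IL-27 matrix (745 to 818). Its ratio was 1.91 (1.76 to 2.07), against 1.02 in C1q macrophages. Srxn1 (sulfiredoxin) stood at 129 and 211 CPM (1.64), Gclc, an enzyme of glutathione synthesis, at 25.6 and 42.9 CPM (1.67) and Tfrc, the transferrin receptor, at 8.55 and 15.6 CPM (1.83). Hmox1, which breaks down heme, stood at 244 and 303 CPM (1.24) and had a ratio of 1.87 in cluster 1. Slc7a11 was also higher in neutrophils, at 1472 and 3115 CPM, and their part in the members' level was not tested; Srxn1 stood there at 81.0 and 100.9 CPM, below the members.

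**Figure D4:**
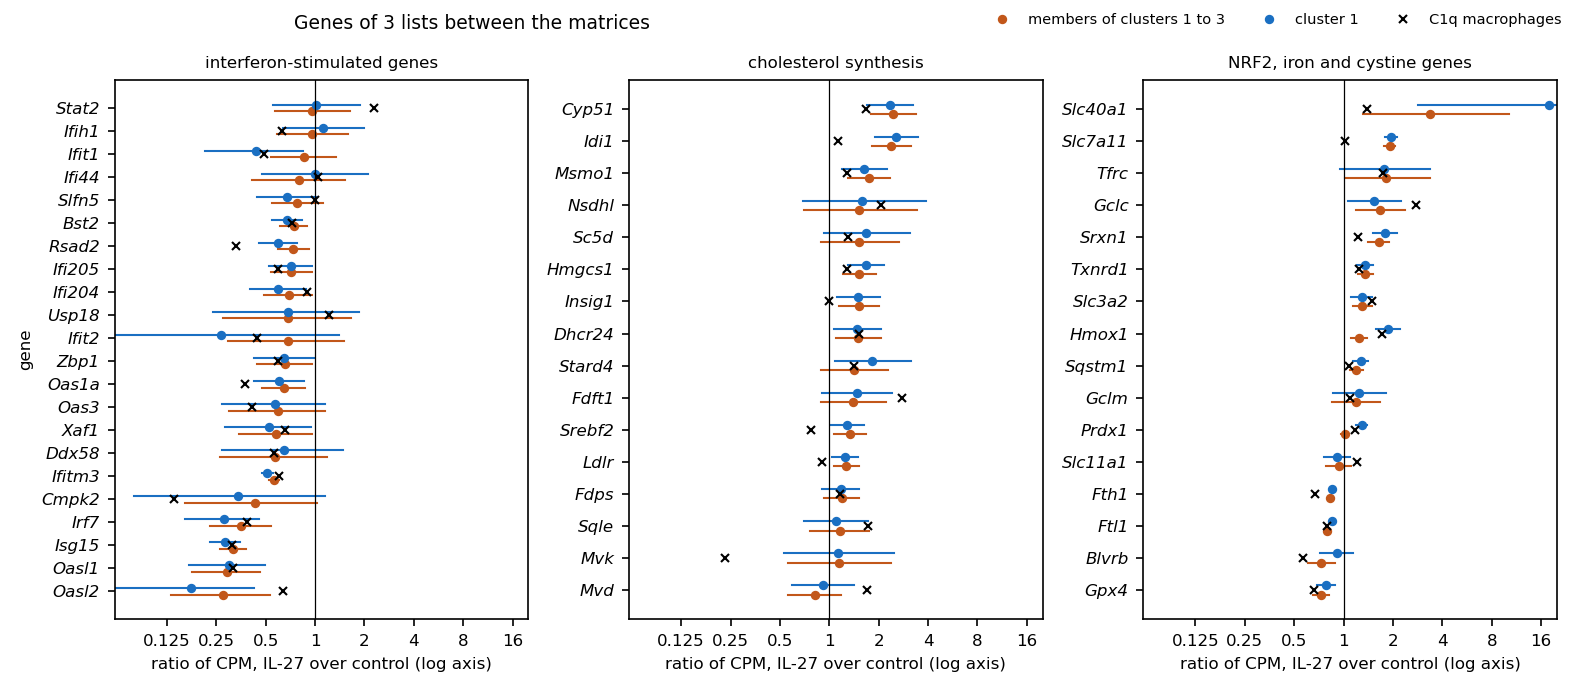
Ratio of IL-27 over control on a log axis for the genes shown of the interferon-stimulated, cholesterol synthesis and NRF2 lists in clusters 1 to 3 and in cluster 1 alone, with 95% intervals from counts, and crosses for C1q macrophages. In clusters 1 to 3 the interferon-stimulated genes lie below 1 and all but 1 of the cholesterol genes shown lie above 1; some wide intervals run past the axis.

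Among the proteases and their inhibitors, more genes were past 1.5-fold lower than higher. Of 13 matrix metalloproteinase and inhibitor genes in clusters 1 to 3, 3 were at least 1.5-fold lower and 1 higher. Over all genes there, 8.38% were lower and 8.87% higher. In this list of 13, 1 gene higher is near the background and 3 genes lower are above it. Timp1, a secreted inhibitor of these proteases, was the gene that was higher, with 43.2 CPM in the control (35.0 to 52.8) and 105 in the IL-27 matrix (92.1 to 119). Its ratio was 2.43 (1.91 to 3.11), but 3 cells held 23.6% of its UMIs in the IL-27 matrix. A Timp1 UMI was found in 10.3% of control and 13.2% of IL-27 cells of clusters 1 to 3. In C1q macrophages the Timp1 ratio was 0.829. Mmp8 stood at 35.1 and 19.5 CPM (0.556), Mmp25 at 19.3 and 10.4 CPM (0.538) and Timp2 at 36.4 and 22.6 CPM (0.619). Neutrophils had 43.2 and 33.2 CPM of Mmp8, 76.2 and 78.6 CPM of Mmp25 and 147 and 149.8 CPM of Timp2, more than the members in each case, and their part was not tested. Mmp9, a gelatinase, stood at 2618 and 2011 CPM (0.768), Mmp13, a collagenase, at 444 and 539 CPM (1.22) and Mmp14, a membrane protease, at 283 and 310 CPM (1.09). In the fusion and osteoclast list, 1 of 21 genes was higher and 2 lower, shares near or below those over all genes.

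Genes of alternative activation were split. Of 23 such genes in clusters 1 to 3, 4 were higher and 4 lower, with a median log2 ratio of 0.06. Over all genes there, 8.87% were higher and 8.38% lower. Arg1 stood at 1476 and 1533 CPM (ratio 1.04, 0.990 to 1.09), and its thinned share was 49.5% in control and 48.0% in IL-27 members. Mrc1 stood at 333 and 392 CPM (1.18). Fn1 (fibronectin), at 786 and 1005 CPM, had a ratio of 1.28 (1.20 to 1.36) and thinned shares of 32.3% and 42.4% of members, with 0.646% and 1.31% of neutrophils; in C1q macrophages its ratio was 2.22. Alox15, a lipoxygenase induced by type 2 cytokines, stood at 4.95 and 14.3 CPM (2.89, 1.43 to 6.34).

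**Figure D5:**
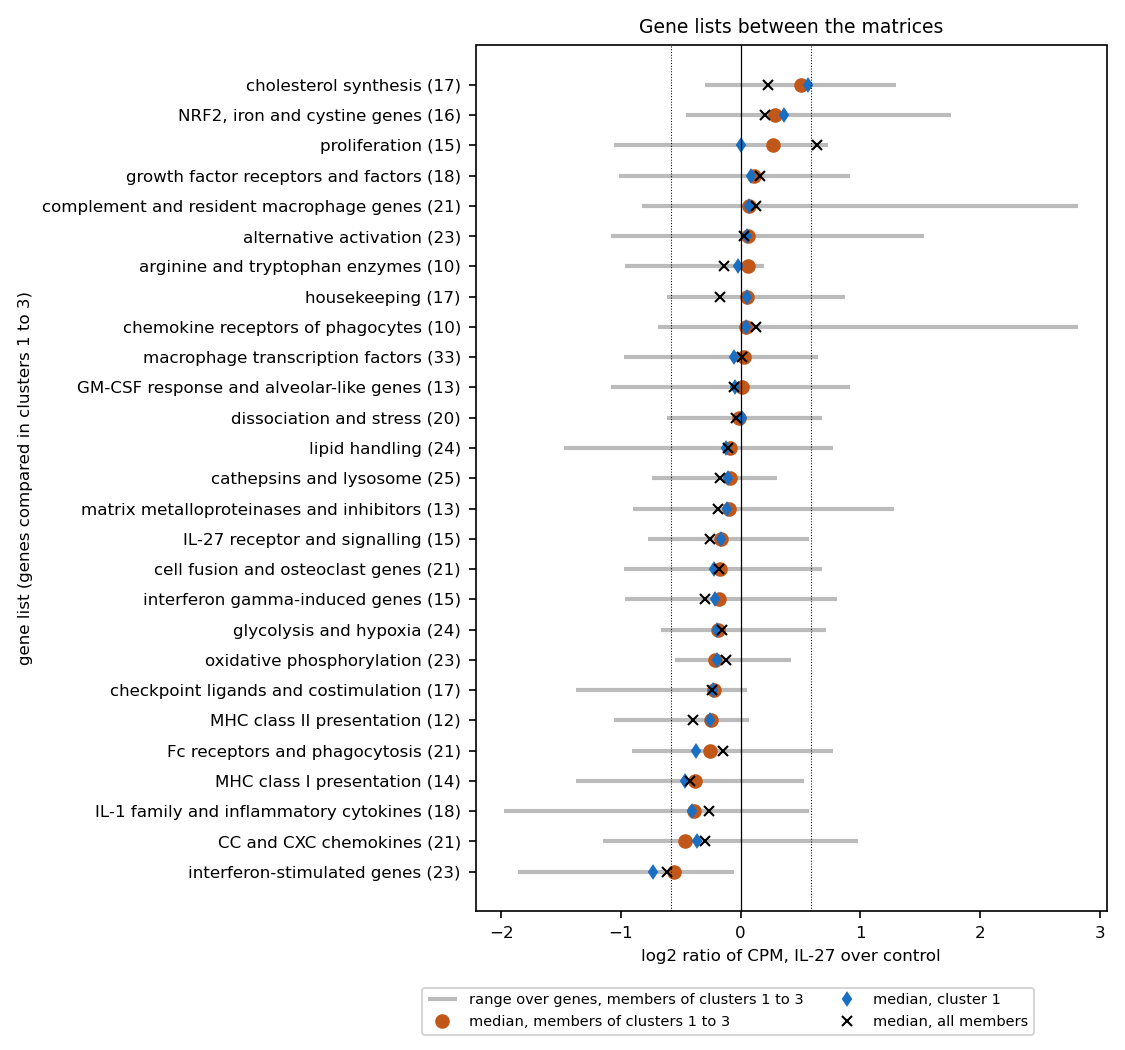
Median log2 ratio of IL-27 over control for each gene list, in clusters 1 to 3 (circles), cluster 1 (diamonds) and all members (crosses), with the range over genes of the list in grey and 1.5-fold marked by dotted lines. The interferon-stimulated list is lowest in clusters 1 to 3 at -0.56 and the cholesterol list highest there at 0.50.

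The receptor of IL-27 was barely counted in the members. Il27ra stood at 1.80 and 0.434 CPM in clusters 1 to 3, Il6st at 27.9 and 35.6 CPM and Jak1 at 142 and 141 CPM. Of the 15 receptor and signalling genes, 1 was at least 1.5-fold lower and 0 higher. Over all genes there, 8.38% were lower, so 1 of 15 is near the background. That gene was Socs3, a feedback inhibitor of gp130 signals, at 360 and 210 CPM (ratio 0.584, 0.520 to 0.654), and neutrophils had 980 and 692 CPM of it. Stat3 stood at 184 and 214 CPM (1.16, 1.02 to 1.33) and Socs1 at 69.7 and 50.7 CPM (0.727). Cd274 (PD-L1), which IL-27 can induce in other cells, stood at 212 and 159 CPM (0.749), with 1236 and 1117 CPM in neutrophils. Of 17 checkpoint and costimulation genes 0 were higher and 1 lower, which is also near the background.

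Few antigen presentation genes were past 1.5-fold. Of 12 MHC class II genes, 1 was at least 1.5-fold lower, a share near the background of 8.38%, 0 were higher and 1 had a ratio above 1, with H2-Ab1 at 2729 and 2357 CPM (0.864). Of 14 MHC class I genes, 2 were lower, 0 higher and 5 had a ratio above 1; H2-K1 stood at 775 and 530 CPM (0.683) and B2m at 1173 and 950 CPM (0.810). Much of the class II RNA of all members lay in clusters 4 and 5, where H2-Ab1 stood at 7250 and 9629 CPM against 2920 CPM in cluster 1.

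The transcription factor list had 33 genes, 1 higher and 4 lower. Over all genes of clusters 1 to 3, 8.87% were higher and 8.38% lower, the background for each list here. Counts of transcription factor and glycolysis genes lay near or below it, and 4 of 24 lipid genes lower lay above it. The genes named here are given for their levels. Jdp2, a member of the AP-1 family, stood at 85.9 and 43.8 CPM (0.510) and Myc at 40.9 and 20.8 CPM (0.508). Within the GM-CSF list, Plet1 stood at 229 and 370 CPM (1.61) and Car4 at 441 and 255 CPM (0.578). Neutrophils had 922 and 509 CPM of Car4, and after thinning 29.4% and 18.1% of neutrophils had a Car4 UMI against 15.1% and 12.2% of members, so no difference in the members is read from it. Inhba, at 787 and 1032 CPM, had a ratio of 1.31. Of 24 lipid genes, 1 was higher and 4 lower: Cd36, a scavenger receptor, stood at 33.3 and 56.8 CPM (1.71), and Apoe (0.565), Fabp5 (0.649) and Gpnmb (0.360) were lower, while 3 cells held 32.8% of the control UMIs of Gpnmb. Of 24 glycolysis and hypoxia genes, 1 was higher and 2 lower, and of 23 oxidative phosphorylation genes 0 were past 1.5-fold; the glycolytic enzyme Gapdh stood at 4070 and 2727 CPM (0.670).

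Proliferation genes differed between all members and clusters 1 to 3. Over all members 11 of 20 were at least 1.5-fold higher and 0 lower, with a median log2 ratio of 0.64 that turned to -0.08 when the rule was applied to cells thinned to 1000 UMIs. In clusters 1 to 3 these were 3 and 2 of 15, and in cluster 1 0 were higher. Mki67 stood at 172 CPM in cluster 5 and 13.7 CPM in cluster 1.

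By size of ratio alone, further genes stood out in clusters 1 to 3. Satb1, a chromatin organiser, stood at 12.6 and 45.1 CPM (3.58, 2.34 to 5.65), the ATP-gated channel P2rx5 at 6.75 and 25.2 CPM (3.73, 2.08 to 7.08) and Slc16a1, a lactate transporter, at 13 and 31.2 CPM (2.39, 1.53 to 3.82). Wdr89, Hemk1, Dcaf1, Lpar6 and Ikzf5 also had ratios of 2.39 to 3.17. Col4a1 had a ratio of 3.21, but 3 cells held 57.8% of its UMIs in the higher matrix. At the other end stood Lpar1, a receptor for lysophosphatidic acid, at 27.9 and 9.11 CPM (0.326, 0.189 to 0.543), the matrix protein Ecm1 at 103 and 43.8 CPM (0.427, 0.334 to 0.542) and the Fc receptor-like gene Fcrlb at 59.4 and 25.6 CPM (0.431, 0.311 to 0.590). Ethe1, Znhit3 and Hist1h1e had ratios of 0.386, 0.405 and 0.397, with 41.7%, 54.0% and 22.5% of the control UMIs in 3 cells.

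Over all members the highest and lowest ratios named other genes. Slc22a4, a carrier of ergothioneine, stood at 3.81 and 14.2 CPM (3.74) and had a ratio of 2.97 in clusters 1 to 3. Oas1g, an interferon-stimulated gene, stood at 14.0 and 4.48 CPM (0.321). Atad2 and Hist1h4d were higher (3.61 and 2.91) with 64.1% and 63.5% of their member UMIs in cluster 5, and Chpt1 and Ildr1 lower (0.322 and 0.395) with 76.9% and 84.7% there. Cxcl9, an interferon gamma-induced chemokine, had a ratio of 0.330, but 44.7% of its member UMIs lay in the 10 cells of cluster 6, and in clusters 1 to 3 it was 0.883 (0.601 to 1.30). Tfrc (2.28), Klhl21 (2.34) and Hal (2.45) had ratios above 1.5 in clusters 1 to 3 as well.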

How the data were processed

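The authors deposited 1 matrix of raw UMI counts (genes by barcodes) for each group. The submitters' processing notes name Cell Ranger 4.0, Seurat 3.2.0 and mm10, per the file headers the software was cellranger-4.0.0, and alignment settings were not given in the sources used here. Barcodes were kept from 500 UMIs and 200 genes upward when the 13 mitochondrial genes held less than 10% of the UMIs. Doublets were not removed, and an alternative left out the 8% of cells with the highest Scrublet scores in each matrix. Members were found on whole UMIs by the rule above. The members and the 27 gene lists were chosen with earlier results of these data known; the restriction to clusters 1 to 3, the share without a C1q limit and the finer clusterings were added after the data were seen.

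Members were clustered with scanpy 1.11.5 (scaled to 10000 UMIs, 2000 variable genes, 30 principal components, 15 neighbours, Leiden resolution 0.3, seed 0). UMIs were summed per matrix and group of cells and divided by the total to give CPM. Between matrices, genes with at least 20 UMIs over both matrices were compared and called past 1.5-fold. Between classes, genes needed at least 20 UMIs over the 2 classes in each matrix and were called past 2-fold the same way in both matrices. Named genes had at least 50 UMIs in the higher matrix and a UMI in at least 5% of its cells: the 12 highest and 12 lowest ratios between matrices and the 15 highest and 15 lowest folds between classes, leaving out mitochondrial, ribosomal, receptor segment, hemoglobin, model and rule genes and markers of other classes. Genes of the lists could be named for their levels. Classes are named for their gates. Cells were thinned without replacement to 1000 UMIs for shares of cells with a UMI, and shallower cells were left out. The listed symbols Clec7a, Cxcl4, Il36g and Mx2 had no match. With 1 sample per group, no test was fitted. Intervals come from scipy 1.17.1 at 95%, and the steps were tested on simulated data. UMIs of 1 cell are not independent, so intervals are too narrow for differences between tumours. Positions are from GENCODE on GRCm38.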

Additional observations from a re-analysis of the deposited data

How the results depend on the processing

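No paired analysis was possible because each group is 1 matrix. The ratio of the members' shares lay between 1.23 and 1.42 under the other settings and was 1.02 without the C1q limit; that setting replaces the low-C1q rule itself. Counts of genes moved with the filter and the averaging. Between the matrices, 797 higher and 848 lower genes became 1196 and 1521 with the mean of per-cell CPM, 1745 and 1831 with no filter on low genes, and 252 and 278 with at least 100 UMIs. Against C1q macrophages, 598 higher genes became 326 with the rule on thinned cells, 395 without the 5% of members with most UMIs, 342 with stricter lineage limits, 323 with at least 100 UMIs and 277 in clusters 1 to 3, and 640 lower genes became 1032 with no filter and 271 with at least 100 UMIs. Against monocytes, 384 higher genes became 253 with stricter lineage limits, 174 with at least 100 UMIs and 254 in clusters 1 to 3, and 574 lower genes became 1097 with no filter and 236 with at least 100 UMIs. The proliferation median turned to -0.078 with the rule on thinned cells. The ratio of Cxcl9 became 1.11 without the members with most UMIs, that of Ildr1 2.26 on thinned cells, 1.55 with stricter lineage limits and 4.82 in clusters 1 to 3, and that of Hist1h4d 0.870 with the per-cell mean and 0.723 in clusters 1 to 3; beyond the fewer genes or cells of some settings, the cause was not tested. Of the other values, 373 of the list medians and 301 of the named ratios moved by less than counting error or the set limit, and 58 and 29 moved further. The 29 named ratios kept their direction, but list medians near 0 could change sign. The median log2 ratio of the complement and resident macrophage list ranged from -0.243 to 0.170. That of the arginine and tryptophan list ranged from -0.328 to 0.136. Leaving out the highest doublet scores kept 583 of 602 and 730 of 761 members. Shallow cells limit the rule: a cell of few UMIs can miss C1q or the markers by chance.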
